A study of Rattus norvegicus with 46 samples.

Results

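The genes described here are 10 genes of sulphur amino acid metabolism in the liver and quadriceps muscle of rats: Mat1a, Gnmt and Bhmt of the methionine cycle, Cbs and Cth of transsulfuration, Cdo1 and Csad of taurine synthesis, and Gclc, Gclm and Gss of glutathione synthesis. They were taken by symbol, and all 10 matched 1 row each among the 32552 genes of the count table. In liver, weight-matched rats differed from vehicle rats in 4 of the 10 genes, beside 7.02% of all genes tested, with Gclm and Csad higher and Cth and Bhmt lower; Cth did not pass without vehicle libraries 4 and 6, described below. The Csad call was lost in a fit of the 2 groups alone. Among the 3 groups the mean of Csad was highest in CagriSema liver, but its difference from weight-matched liver did not pass. Gclm in CagriSema liver was lower than in weight-matched liver, a call that held in 10 of the 23 fits that left out 1 liver library. In quadriceps, where Bhmt, Mat1a and Gnmt were at or near 0, none of the 7 measurable genes passed the test. There, 0.0321% of all genes passed with CagriSema and 2.29% with weight matching, each set against vehicle, and 0.128% passed when CagriSema was set against weight matching. The genes were chosen by pathway, but with earlier results of these data known, among them the level of Csad in CagriSema liver set against vehicle liver. That difference is given below as a description, without a p-value. The p-values of the other differences take no account of that choice. The weight-matching call of Csad also uses the same vehicle libraries.

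The methionine cycle turns methionine into the methyl donor S-adenosylmethionine and then into homocysteine. Homocysteine is either methylated back to methionine or passed by transsulfuration to cysteine. Cysteine is a precursor of both taurine, which liver joins to bile acids, and glutathione, the main thiol antioxidant of cells. Liver is the main organ of these pathways, and several of their enzymes are textbook hepatocyte genes.

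RNA was sequenced in bulk from DIO (diet-induced obese) rats of WT genotype in 3 treatment groups per tissue. CagriSema is a combination of cagrilintide, an amylin analogue, and semaglutide, an agonist of the glucagon-like peptide receptor. It was given for 20 days (7 liver and 8 quadriceps libraries), and weight-matched rats were food-restricted to match their weight (8 and 8 libraries). Vehicle rats were the common control of both groups (8 and 7 libraries). The labels give no strain, sex, age or dose. Nothing in the labels ties libraries to separate rats, and p-values therefore cover only the spread among libraries, which may be technical. Both comparisons with vehicle share the same vehicle libraries.

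Library totals were 9888858 to 15948219 counts in liver and 11462369 to 16525274 in quadriceps. Hepatocyte markers were abundant in liver and muscle fibre markers in quadriceps, as labelled: 8 hepatocyte markers summed to 107590 CPM (counts scaled to a common library size) or more in every liver library, and 7 muscle fibre markers to 111310 CPM or more in every quadriceps library. Liver vehicle libraries 4 and 6 stood apart, with 1.87% of counts from ribosomal protein genes in library 4, against at most 0.950% in the libraries other than these, and 9.29% from mitochondrial genes in library 6, against at most 5.81%. Liver fold changes of the 10 genes against vehicle are therefore given with and without them. Quadriceps vehicle libraries 2 and 5 had the highest ribosomal protein shares of that tissue, 0.973% and 1.01%, and the quadriceps comparisons were refitted without them.

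Promoters are shown for Csad, the member with the largest fold change for CagriSema against vehicle in liver, the value known beforehand, and for Gclc and Gclm, the catalytic and the modifier subunit of 1 enzyme, of which only Gclm passed the test in liver with all libraries. They are the 250 bases before and 50 bases after the annotated start, from RefSeq on the rat build GRCr8, printed 5′ to 3′ on the strand of the gene. Csad is at chr7:135215532-135215831 on the minus strand, Gclc at chr8:87510226-87510525 on the plus strand and Gclm at chr2:213031885-213032184 on the plus strand. Capitals mark a match to the core of the antioxidant response element (TGACNNNGC, searched on both strands), the motif bound by NRF2.
Csad: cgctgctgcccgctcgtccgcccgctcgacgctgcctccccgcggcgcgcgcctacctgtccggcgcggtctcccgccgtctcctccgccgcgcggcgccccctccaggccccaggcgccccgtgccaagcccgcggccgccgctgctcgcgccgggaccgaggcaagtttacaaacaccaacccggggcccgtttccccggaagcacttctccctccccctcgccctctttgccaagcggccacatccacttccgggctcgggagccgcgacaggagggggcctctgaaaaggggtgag
Gclc: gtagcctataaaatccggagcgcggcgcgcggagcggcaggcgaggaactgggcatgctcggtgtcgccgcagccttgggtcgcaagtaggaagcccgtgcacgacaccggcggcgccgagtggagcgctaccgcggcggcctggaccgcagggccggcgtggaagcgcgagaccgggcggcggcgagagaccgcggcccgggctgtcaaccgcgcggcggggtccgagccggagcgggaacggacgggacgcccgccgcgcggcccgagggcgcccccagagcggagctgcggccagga
Gclm: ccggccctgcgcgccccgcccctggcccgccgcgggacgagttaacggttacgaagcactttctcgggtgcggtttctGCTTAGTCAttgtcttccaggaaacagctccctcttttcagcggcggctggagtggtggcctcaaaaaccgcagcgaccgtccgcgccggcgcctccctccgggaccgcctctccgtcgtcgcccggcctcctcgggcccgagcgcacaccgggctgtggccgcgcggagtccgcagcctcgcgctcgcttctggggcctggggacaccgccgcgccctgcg
Of the 9 members with a promoter in the table, Gclm and Gnmt held that core, each on the strand opposite the gene, and so did 12.1% of the 33469 promoters of the same length. The core of the amino acid response element (TGATGNAA, both strands) was in none of the 9 windows and in 3.98% of all promoters. Such a match describes letters in a window and shows no binding. Cdo1 is named only.

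In liver, Csad, which encodes the decarboxylase that makes hypotaurine from cysteine sulfinate, had a lowest, median and highest level of 222, 286 and 433 CPM in CagriSema libraries, 185, 205 and 265 CPM in weight-matched libraries, and 69.4, 106 and 262 CPM in vehicle libraries. Every CagriSema library lay above every vehicle library except library 4 (262 CPM), and the second highest vehicle library was library 6 (155 CPM). The mean was 308 ± 87.2 CPM (SD, n = 7) with CagriSema, 216 ± 28.7 CPM (n = 8) with weight matching and 127 ± 61.6 CPM (n = 8) with vehicle. Against vehicle, the log2 fold change with CagriSema was 1.28 ± 0.22 (SE), and 1.63 ± 0.17 without vehicle libraries 4 and 6, when vehicle ranged over 69.4 to 138 CPM and the groups did not overlap. Such a gap between CagriSema and those 6 vehicle libraries was seen in 0.606% of genes tested. In bulk tissue, fewer cells of a type and less RNA per cell cannot be told apart, here or below.

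Csad was also higher with weight matching, with a log2 fold change of 0.77 ± 0.21 (adjusted p = 0.0303, edgeR quasi-likelihood test with Benjamini-Hochberg adjustment over 12702 genes), and of 1.12 ± 0.17 (adjusted p = 0.00079) without vehicle libraries 4 and 6. This contrast uses the same vehicle libraries as the value known beforehand, so its p-values are not independent of the choice of Csad. All 8 weight-matched libraries lay above all vehicle libraries but library 4, and without libraries 4 and 6 the 2 groups did not overlap, which was so for 1.57% of genes. The call was lost without vehicle library 1 or weight-matched libraries 25, 27 or 30 (adjusted p = 0.0501 to 0.0562) and in a fit of the 2 groups alone (adjusted p = 0.0646). Csad in CagriSema liver had a log2 difference of 0.51 ± 0.22 from weight-matched liver, which did not pass (adjusted p = 0.357), with a 95% interval of 0.07 to 0.96 before adjustment. Without vehicle libraries 4 and 6, which are not part of that contrast but enter the shared estimate of the spread, the same difference had a smaller error (0.51 ± 0.15, adjusted p = 0.0586).

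Cdo1 encodes cysteine dioxygenase, which makes the substrate of Csad. It had 907, 948 and 1046 CPM as lowest, median and highest in CagriSema libraries, 914, 984 and 1106 CPM in weight-matched libraries, and 851, 1130 and 1974 CPM in vehicle libraries. Its 3 ranges overlapped, and the top of the vehicle range was library 4 (1974 CPM) followed by library 6 (1381 CPM). Its log2 fold change was -0.35 ± 0.12 with CagriSema (adjusted p = 0.164) and -0.29 ± 0.11 with weight matching (adjusted p = 0.128). The weight-matching value passed without vehicle library 5 (-0.35, adjusted p = 0.0496). Without libraries 4 and 6 the changes were -0.16 ± 0.07 and -0.09 ± 0.07. With all libraries, Cdo1 and Csad, consecutive steps of 1 pathway, did not both pass in either comparison.

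**Figure D1:**
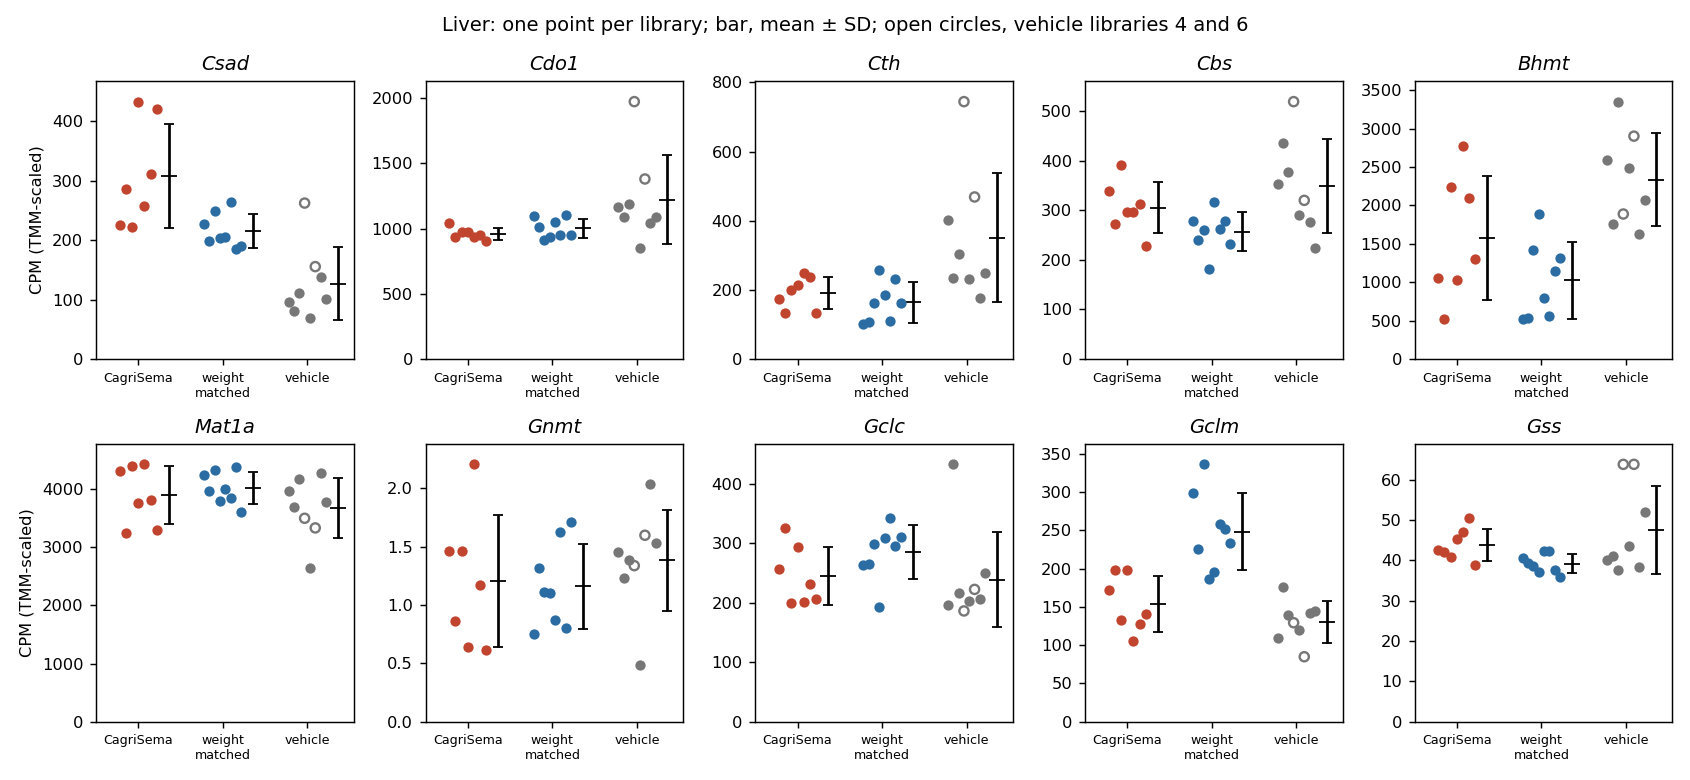
Level of the 10 genes in each liver library, in TMM-scaled CPM on axes that start at 0, with CagriSema left, weight matched in the middle and vehicle right. Points are libraries, bars are the mean ± SD, and open circles are vehicle libraries 4 and 6; the weight-matched points of Gclm lie above all vehicle points, and vehicle library 4 is the highest vehicle point for Csad, Cdo1, Cth and Cbs.

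Mat1a, which encodes the liver form of methionine adenosyltransferase and opens the methionine cycle, had 3244, 3807 and 4429 CPM in CagriSema libraries, 3616, 3989 and 4378 CPM in weight-matched libraries, and 2653, 3742 and 4277 CPM in vehicle libraries. The ranges lay over each other. Its log2 fold change against vehicle was 0.08 with CagriSema (95% interval -0.11 to 0.28) and 0.13 with weight matching (-0.06 to 0.32), and without vehicle libraries 4 and 6 it was 0.05 (-0.15 to 0.26) and 0.10 (-0.10 to 0.30).

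Bhmt encodes the enzyme that methylates homocysteine with betaine. It had 524, 1300 and 2772 CPM in CagriSema libraries, 519, 970 and 1894 CPM in weight-matched libraries, and 1634, 2280 and 3352 CPM in vehicle libraries. Library 28 was the only weight-matched library above the lowest vehicle library, whereas CagriSema libraries 35, 38 and 39 lay inside the vehicle range and the other 4 lay below it. Bhmt fell with weight matching, with a log2 fold change of -1.19 ± 0.30 (adjusted p = 0.0201), and -1.18 ± 0.35 (adjusted p = 0.0447) without vehicle libraries 4 and 6. With CagriSema the change was -0.57 ± 0.31 (adjusted p = 0.328), and CagriSema differed from weight matching by 0.62 ± 0.31 (adjusted p = 0.501), so neither passed. Without libraries 4 and 6 these values of Bhmt were -0.56 ± 0.36 (adjusted p = 0.540) and 0.62 ± 0.34 (adjusted p = 0.325).

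Gnmt, which encodes the methyltransferase that uses S-adenosylmethionine to methylate glycine and is known as abundant in liver, had only 7 to 29 counts per liver library. Its levels were 0.612 to 2.21 CPM with CagriSema, 0.756 to 1.71 CPM with weight matching and 0.489 to 2.04 CPM with vehicle, and no difference was detectable at this depth. The log2 fold change was -0.18 ± 0.28 with CagriSema and -0.23 ± 0.27 with weight matching, or -0.14 ± 0.31 and -0.19 ± 0.30 without vehicle libraries 4 and 6. In RefSeq on GRCr8 the gene overlaps Pex6, which had 928 to 1717 counts per liver library. Whether the overlap bears on the low count was not tested.

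Cbs, whose enzyme condenses homocysteine with serine, had 227, 297 and 392 CPM in CagriSema libraries, 182, 261 and 316 CPM in weight-matched libraries, and 225, 336 and 519 CPM in vehicle libraries. The ranges overlapped, with vehicle library 4 highest. Its log2 fold change was -0.20 ± 0.15 with CagriSema (adjusted p = 0.472) and -0.44 ± 0.14 with weight matching (adjusted p = 0.0611). The weight-matching value of Cbs passed without vehicle library 7 or 8 (adjusted p = 0.0370 and 0.0251). The changes of Cbs without vehicle libraries 4 and 6 were -0.09 ± 0.14 with CagriSema (adjusted p = 0.830) and -0.34 ± 0.14 with weight matching (adjusted p = 0.130).

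Cth encodes cystathionine gamma-lyase, which releases cysteine and so completes transsulfuration. It had 132, 199 and 248 CPM in CagriSema libraries, 100, 161 and 259 CPM in weight-matched libraries, and 177, 276 and 744 CPM in vehicle libraries. Libraries 4 (744 CPM) and 6 (469 CPM) were the highest of the vehicle group, and the other vehicle libraries reached 402 CPM. Cth fell with weight matching, with a log2 fold change of -1.09 ± 0.26 (adjusted p = 0.0129), but without vehicle libraries 4 and 6 the value was -0.69 ± 0.23 and no longer passed (adjusted p = 0.0663). With CagriSema the change was -0.88 ± 0.27 (adjusted p = 0.136), or -0.47 ± 0.24 without those libraries (adjusted p = 0.392).

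Bhmt and Cth had the same lowest and the same highest library inside the weight-matched group and inside the CagriSema group, as the plot of both genes shows. Weight-matched libraries 25, 26 and 30 were the 3 lowest for both genes (519, 539 and 562 CPM of Bhmt, and 100, 106 and 111 CPM of Cth), and library 28 was the highest for both. In the CagriSema group, library 34 was the lowest and library 38 the highest for both. Between these extremes the order differed: CagriSema library 36 had rank 2 from the lowest for Bhmt and rank 5 for Cth. In the vehicle group library 7 was the lowest for both, but the highest was library 3 for Bhmt and library 4 for Cth. These points share libraries and their scaling, so the order is a description.

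**Figure D2:**
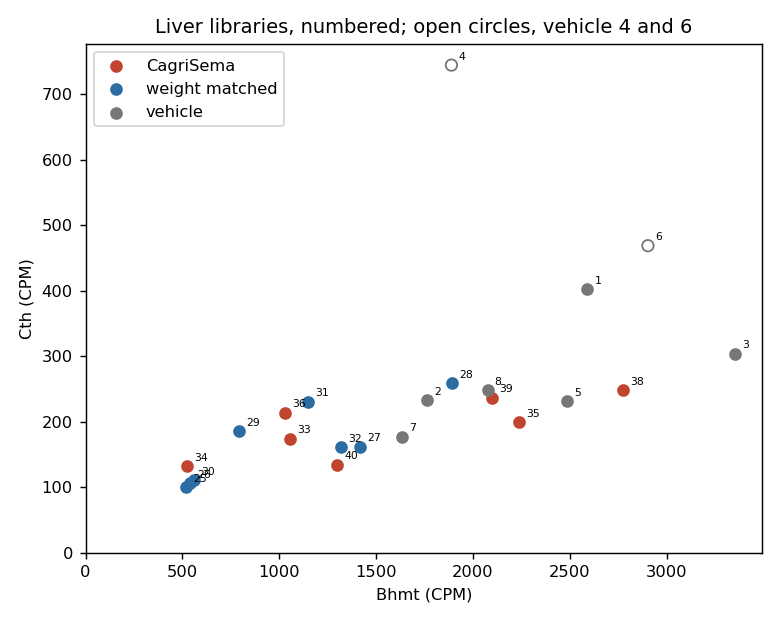
Cth against Bhmt in the 23 liver libraries, both in TMM-scaled CPM on axes that start at 0, each point numbered by its library; open circles are vehicle libraries 4 and 6. The lowest corner holds weight-matched libraries 25, 26 and 30 with CagriSema library 34, and vehicle library 4 has the highest Cth (744 CPM).

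Glutathione is made from cysteine by glutamate-cysteine ligase, of which Gclc is the catalytic and Gclm the modifier subunit, and then by glutathione synthetase, the product of Gss. Gclm had 105, 141 and 198 CPM in CagriSema libraries, 186, 243 and 336 CPM in weight-matched libraries, and 84.9, 134 and 176 CPM in vehicle libraries. No weight-matched library overlapped the vehicle range, a separation that 0.811% of genes showed, and 2 CagriSema libraries (34 and 36, both 198 CPM) reached into the weight-matched range. Gclm rose with weight matching, with a log2 fold change of 0.93 ± 0.15 (adjusted p = 0.00101), or 0.85 ± 0.15 (adjusted p = 0.00227) without vehicle libraries 4 and 6. With CagriSema its change from vehicle was 0.23 ± 0.16 (adjusted p = 0.408), or 0.15 ± 0.16 (adjusted p = 0.724) without those libraries.

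Set against weight-matched liver, Gclm was lower in CagriSema liver by a log2 difference of -0.69 ± 0.16 (adjusted p = 0.0410), and -0.69 ± 0.15 (adjusted p = 0.0111) without vehicle libraries 4 and 6. This difference is close to the threshold: it passed in 10 of the 23 fits that each left out 1 liver library. The call was lost without vehicle libraries 5 or 8, weight-matched libraries 25, 26, 27, 30, 31 or 32, or CagriSema libraries 33, 35, 38, 39 or 40. It was also lost with no filter on low counts (adjusted p = 0.0566). The log2 difference itself stayed between -0.76 and -0.61 in those fits. The call was kept with DESeq2, with limma voom, with the other scalings and in a fit of the 2 groups alone.

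Gclc had 200, 232 and 326 CPM in CagriSema libraries, 192, 297 and 343 CPM in weight-matched libraries, and 186, 212 and 433 CPM in vehicle libraries. The highest value was vehicle library 2 (433 CPM), and the other vehicle libraries reached 249.7 CPM. Its log2 fold change with weight matching was 0.25 ± 0.16 (adjusted p = 0.320), and 0.43 (adjusted p = 0.0315) without vehicle library 2. With CagriSema it was 0.04 ± 0.16 (adjusted p = 0.920), so the catalytic subunit did not pass where all libraries were used. Gclc had changes, without vehicle libraries 4 and 6, of -0.03 ± 0.17 with CagriSema (adjusted p = 0.961) and 0.18 ± 0.17 with weight matching (adjusted p = 0.561).

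Gss had 38.9, 42.6 and 50.5 CPM in CagriSema libraries, 35.8, 38.9 and 42.4 CPM in weight-matched libraries, and 37.7, 42.3 and 63.8 CPM in vehicle libraries. Vehicle libraries 4 and 6, both at 63.8 CPM, made the top of that range. The log2 fold change was -0.11 ± 0.11 with CagriSema (adjusted p = 0.576) and -0.28 ± 0.10 with weight matching (adjusted p = 0.109). Without those 2 libraries the CagriSema value changed sign, to 0.06 ± 0.07, and the weight-matching value was -0.10 ± 0.07 (adjusted p = 0.410).

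For CagriSema against vehicle in liver, 1 of the 10 genes was under the threshold, beside 0.354% of genes tested. That gene was Csad, whose rise was known beforehand, so nothing is read from this count; it was 0 without vehicle library 8 or in a fit of the 2 groups alone. For weight matching against vehicle 4 of 10 passed, beside 7.02% of genes tested. Csad, 1 of these 4, was tested against the same vehicle libraries as the value known beforehand. For CagriSema against weight matching 1 of 10 passed, beside 0.535%. Without vehicle libraries 4 and 6 the counts were 1, 3 and 1 of 10, beside 0.141%, 8.16% and 4.62% of genes. The median log2 fold change of the 10 genes was -0.15 with CagriSema and -0.25 with weight matching, beside -0.02 and -0.01 over all genes tested. Without vehicle libraries 4 and 6 these medians were -0.06 and -0.10, beside -0.0003 and 0.006 over all genes tested.

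**Figure D3:**
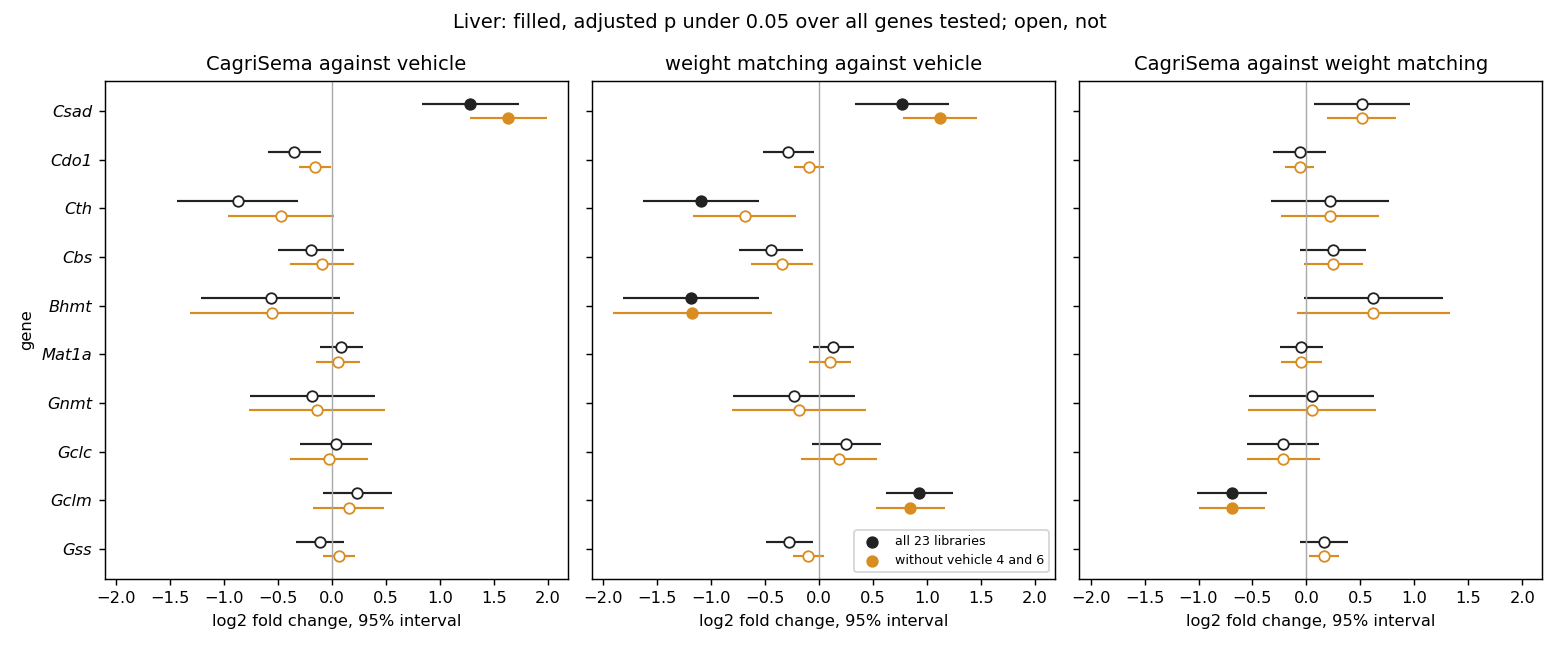
Log2 fold change in liver with its 95% interval for each gene, in the 3 comparisons, from all 23 libraries (black) and without vehicle libraries 4 and 6 (orange). Filled points passed an adjusted p of 0.05 over all genes tested; Csad lies right of 0 in all 3 comparisons, and Gclm is right of 0 for weight matching and left of 0 for CagriSema against weight matching.

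Cell type markers also differed between the liver groups. The 6 periportal hepatocyte markers summed to 3458 to 6782 CPM with CagriSema, 5307 to 7339 CPM with weight matching and 5837 to 12869 CPM with vehicle, where library 4 was highest. Of these 6, 3 were lower with weight matching and 1 was lower with CagriSema against vehicle. The 8 general hepatocyte markers summed to 107590 to 135180 CPM with CagriSema, 113680 to 140220 CPM with weight matching and 121790 to 192910 CPM with vehicle, again with library 4 highest. Of these 8, 2 were lower with weight matching and 1 with CagriSema. Of 5 tested pericentral markers, 1 was higher and 1 lower with weight matching. Without vehicle libraries 4 and 6, the counts lower with weight matching were 2 of 6 periportal and 1 of 8 general markers, those lower with CagriSema were 1 of 6 and 0 of 8, and the pericentral markers had 0 higher and 1 lower with weight matching. Over all genes tested 7.02% passed with weight matching and 0.354% with CagriSema, or 8.16% and 0.141% without those libraries. Markers of macrophages, endothelial cells, stellate cells, cholangiocytes and lymphocytes had no member that passed against vehicle. The part of these markers in the differences of Bhmt, Cth, Csad and Gclm was not tested.

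Of 92 other tested genes of these pathways in 5 lists, 14 passed in liver for weight matching against vehicle, beside 7.02% of all genes tested, and 16 without vehicle libraries 4 and 6, beside 8.16%. None passed with edgeR for CagriSema against vehicle, beside 0.354% of all genes tested. There 18 had an unadjusted p under 0.05, 2 passed with DESeq2 (280 of all 21668 genes) and 1 with limma voom (216 of all 12702 genes). None passed for CagriSema against weight matching either, beside 0.535% of all genes tested. There 18 had an unadjusted p under 0.05, 0 passed with DESeq2 (211 of all 21668 genes) and 8 with limma voom (617 of all 12702 genes). Without vehicle libraries 4 and 6 the edgeR counts of these 2 comparisons were 0 and 8 of 92, beside 0.141% and 4.62% of all genes tested. Of the 8, 2 of the methionine cycle, 2 of cysteine breakdown and taurine, 2 of glutathione use and turnover and 1 of one-carbon supply were lower with CagriSema. The remaining 1, an NRF2 target, was higher. The 8 included Glrx, lower with CagriSema than with weight matching (-0.36 ± 0.09, adjusted p = 0.0306), and Mat2a, also lower (-0.43 ± 0.12, adjusted p = 0.0496). Among the 25 other genes of the methionine cycle, 1 rose and 2 fell with weight matching, beside 7.02% of all genes tested. Without vehicle libraries 4 and 6, 2 rose and 3 fell, beside 8.16%. Mat2a, the methionine adenosyltransferase found outside liver as well, had 49.5, 66.5 and 86.5 CPM in weight-matched libraries and 36.2, 48.1 and 66.4 CPM in vehicle libraries. Its rise of 0.46 ± 0.13 on the log2 scale (adjusted p = 0.0305) did not pass without vehicle libraries 4 and 6 (0.38 ± 0.13, adjusted p = 0.0736), nor without 1 of vehicle libraries 1 and 6 or weight-matched libraries 25, 26, 29 and 30 (adjusted p up to 0.0697), nor in a fit of the 2 groups alone (adjusted p = 0.0707).

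Nnmt, whose enzyme spends S-adenosylmethionine on nicotinamide, fell to 34.7, 42.0 and 55.8 CPM in weight-matched libraries, against 48.7, 76.0 and 377 CPM in vehicle libraries. Its log2 fold change was -1.34 ± 0.34 (adjusted p = 0.0177), and -0.73 ± 0.22 (adjusted p = 0.0400) without vehicle libraries 4 and 6. In a fit of the 2 groups alone Nnmt did not pass (adjusted p = 0.0582). Bhmt2, a methyltransferase that uses S-methylmethionine, fell by 0.35 ± 0.10 (adjusted p = 0.0303), or by 0.32 ± 0.10 (adjusted p = 0.0445) without vehicle libraries 4 and 6. Its call was lost without vehicle libraries 6 or 8 or weight-matched libraries 25, 27 or 31 (adjusted p up to 0.0645), with upper-quartile scaling (0.0504) and with no filter on low counts (0.0574).

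Of 13 other tested genes of cysteine breakdown and taurine, 1 rose and 2 fell with weight matching, beside 7.02% of all genes tested that passed. The list median was -0.21, beside -0.01 over all genes. Without vehicle libraries 4 and 6, 2 rose and 2 fell, beside 8.16% of all genes tested, and the list median was -0.05, beside 0.006. Suox, the sulfite oxidase gene of the last step of cysteine oxidation to sulfate, had 101, 124 and 133 CPM in weight-matched libraries and 155, 174 and 234 CPM in vehicle libraries. These ranges did not overlap, which was so for 0.811% of genes tested. Its fall of -0.57 ± 0.09 (adjusted p = 0.00101) was -0.45 ± 0.08 (adjusted p = 0.00123) without libraries 4 and 6. Got1, the cytosolic aspartate aminotransferase that can also transaminate cysteine sulfinate, fell by 1.12 ± 0.26 (adjusted p = 0.0107), or by 0.95 ± 0.23 (adjusted p = 0.0141) without those libraries. Fmo1, a monooxygenase that oxidizes hypotaurine to taurine in mouse and human, rose by 1.28 ± 0.32 (adjusted p = 0.0174), or by 1.01 ± 0.31 (adjusted p = 0.0488) without them, with 197 to 368 CPM in weight-matched libraries and 41.4 to 244 CPM in vehicle libraries.

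Of 20 tested genes of glutathione use and turnover, 1 passed with weight matching, beside 7.02% of all genes tested. Without vehicle libraries 4 and 6, 2 were higher and 1 was lower, beside 8.16%. Glrx, the glutaredoxin gene, had 34.1, 36.2 and 51.1 CPM in weight-matched libraries and 22.9, 26.2 and 33.4 CPM in vehicle libraries. Its ranges did not overlap, as in 0.811% of genes tested. It rose by 0.52 ± 0.10 (adjusted p = 0.00298), or by 0.57 ± 0.10 (adjusted p = 0.00149) without vehicle libraries 4 and 6. Of the 16 tested targets of NRF2 described here, outside the other lists, 0 passed with edgeR for weight matching against vehicle, beside 7.02% of all genes tested. There 5 had an unadjusted p under 0.05, 1 passed with DESeq2 (1329 of all 21668 genes) and 0 with limma voom (1048 of all 12702 genes). Nqo1, a defining NRF2 target, was named here after its values were seen. It had 17.7, 24.0 and 36.6 CPM in weight-matched libraries and 5.07, 17.5 and 57.6 CPM in vehicle libraries, and it was not called. The part of NRF2 in the rise of Gclm was not tested.

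Of 18 tested genes of one-carbon and serine supply, 3 were higher and 4 lower with weight matching, beside 7.02% of all genes tested that passed. Without vehicle libraries 4 and 6 the counts were 3 higher and 1 lower, beside 8.16%. Mthfd1, a cytosolic folate enzyme, rose by 0.52 ± 0.10 (adjusted p = 0.0018), or by 0.51 ± 0.10 (adjusted p = 0.00316) without those libraries. Mthfd1l, its mitochondrial relative, rose by 0.91 ± 0.22 (adjusted p = 0.0157), or by 0.95 ± 0.24 (adjusted p = 0.0181) without them, at a low level, 1.56 to 3.19 CPM in weight-matched libraries and 0.727 to 1.58 CPM in vehicle libraries. Phgdh, the first enzyme of serine synthesis, rose by 2.64 ± 0.64 (adjusted p = 0.0142), with 0.969, 7.50 and 13.8 CPM in weight-matched libraries and 0.304, 0.770 and 5.23 CPM in vehicle libraries. The ranges of Phgdh overlapped, and without vehicle libraries 4 and 6 its vehicle level reached only 1.17 CPM and the rise was 3.23 ± 0.70 (adjusted p = 0.00793).

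**Figure D4:**
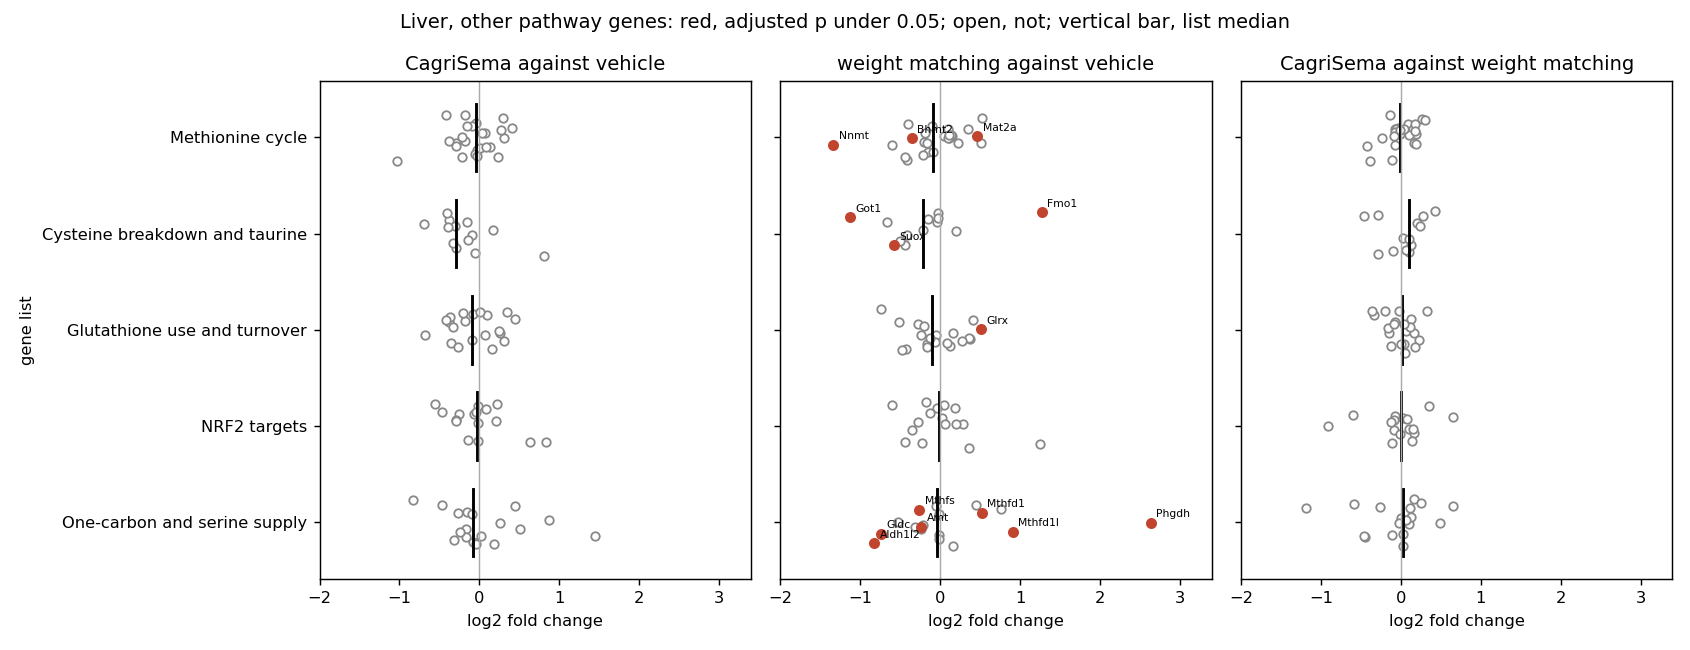
Log2 fold change in liver of the other pathway genes in 5 lists, 1 point per tested gene, for the 3 comparisons; red points passed an adjusted p of 0.05 over all genes tested, open points did not, and the vertical bar is the list median. Red points stand only in the panel of weight matching against vehicle, 14 in all, on both sides of 0.

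By the rule for likeness, the 3 genes whose log2 CPM followed Csad most closely over the 23 liver libraries were Heatr3, Slc30a5 and Gpc3 (Pearson r 0.76, 0.73 and 0.70). For Bhmt they were LOC689757, Hexdc and Bmp1 (0.90, 0.85 and 0.83), and for Gclc they were Ndel1, Usp39 and Cds1 (0.76, 0.73 and 0.73). Libraries share their group and scaling, so these values describe the table. Without vehicle libraries 4 and 6 they were 0.79, 0.74 and 0.76 for Csad, 0.90, 0.85 and 0.81 for Bhmt, and 0.74, 0.70 and 0.71 for Gclc.

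In quadriceps, Gnmt had 0 counts in all 23 libraries, and Bhmt and Mat1a had a median at or under 0.0415 CPM in every group, so these 3 genes were not tested there. A count of 0 in 1 quadriceps library allows up to 0.182 to 0.262 CPM, taking 3 counts as the floor, which covers counting error only. Vehicle library 2 had the highest values, with 1.65 CPM of Bhmt and 1.80 CPM of Mat1a. The CagriSema libraries reached 0.217 CPM of Bhmt and 0.461 CPM of Mat1a, and the weight-matched libraries 0.0667 and 0.0774 CPM. The 8 hepatocyte markers of vehicle library 2 summed to 113.6 CPM, against 36.1 to 75.4 CPM in the other quadriceps libraries. Their part in its Bhmt and Mat1a was not tested.

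Csad was present in quadriceps at 9.25, 10.7 and 12.9 CPM with CagriSema, 7.50, 9.80 and 11.5 CPM with weight matching and 9.06, 10.9 and 12.6 CPM with vehicle. The 3 groups overlapped. The log2 fold change was 0.01 with CagriSema (95% interval -0.18 to 0.20) and -0.19 with weight matching (-0.38 to 0.00).

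Gclm had 15.1, 18.3 and 19.4 CPM with CagriSema, 17.0, 18.4 and 20.9 CPM with weight matching and 15.7, 17.3 and 18.8 CPM with vehicle. Its log2 fold change was 0.03 with CagriSema (95% interval -0.11 to 0.16) and 0.11 with weight matching (-0.03 to 0.24). Gclc had 11.6, 13.4 and 15.2 CPM with CagriSema, 10.7, 14.0 and 16.3 CPM with weight matching and 11.8, 12.7 and 29.2 CPM with vehicle. As in liver, the single high value came from vehicle library 2.

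The other measurable genes were low and their groups overlapped. Cdo1 ranged over 1.45 to 5.71 CPM with CagriSema, 1.70 to 6.31 CPM with weight matching and 1.77 to 5.24 CPM with vehicle. Cth ranged over 0.975 to 2.24 CPM with CagriSema, 0.667 to 2.05 CPM with weight matching and 0.935 to 1.70 CPM with vehicle. Cbs ranged over 0.875 to 2.60 CPM with CagriSema, 0.940 to 4.21 CPM with weight matching and 0.951 to 2.56 CPM with vehicle, with weight-matched libraries 31 and 32 above 4 CPM. Gss ranged over 4.55 to 6.79 CPM with CagriSema, 4.60 to 6.16 CPM with weight matching and 4.74 to 6.05 CPM with vehicle.

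None of the 7 genes passed with edgeR in quadriceps over 12471 genes tested. At an unadjusted p under 0.05 the counts were 0, 0 and 1 of 7 (Csad, 0.20 ± 0.09, in CagriSema against weight matching), and DESeq2 and limma voom called 0 in each. Of 82 other pathway genes tested in quadriceps, 3 passed for weight matching against vehicle, beside 2.29% of all genes tested, and all rose: Mtr, the methionine synthase gene (0.39 ± 0.08, adjusted p = 0.0171), Ethe1, a persulfide dioxygenase gene (0.26 ± 0.07, adjusted p = 0.0458), and Nqo1 (0.45 ± 0.12, adjusted p = 0.0449). None of the 3 passed without vehicle libraries 2 and 5 (adjusted p = 0.0643, 0.184 and 0.129) or in a fit of the 2 groups alone (0.0601, 0.104 and 0.0951). With limma voom Ethe1 and Nqo1 did not pass (adjusted p = 0.120 and 0.110), nor with no filter on low counts (0.0853 and 0.0508, edgeR). Mtr did not pass without vehicle library 5 alone (adjusted p = 0.0515), and Ethe1 passed in 9 and Nqo1 in 8 of the 23 fits that left out 1 quadriceps library. Of the 82 genes, 11 passed with DESeq2 (636 of all 21458 genes) and 1 with limma voom (53 of all 12471 genes). With edgeR, 0 passed without vehicle libraries 2 and 5 (19 of all 12597 genes).

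**Figure D5:**
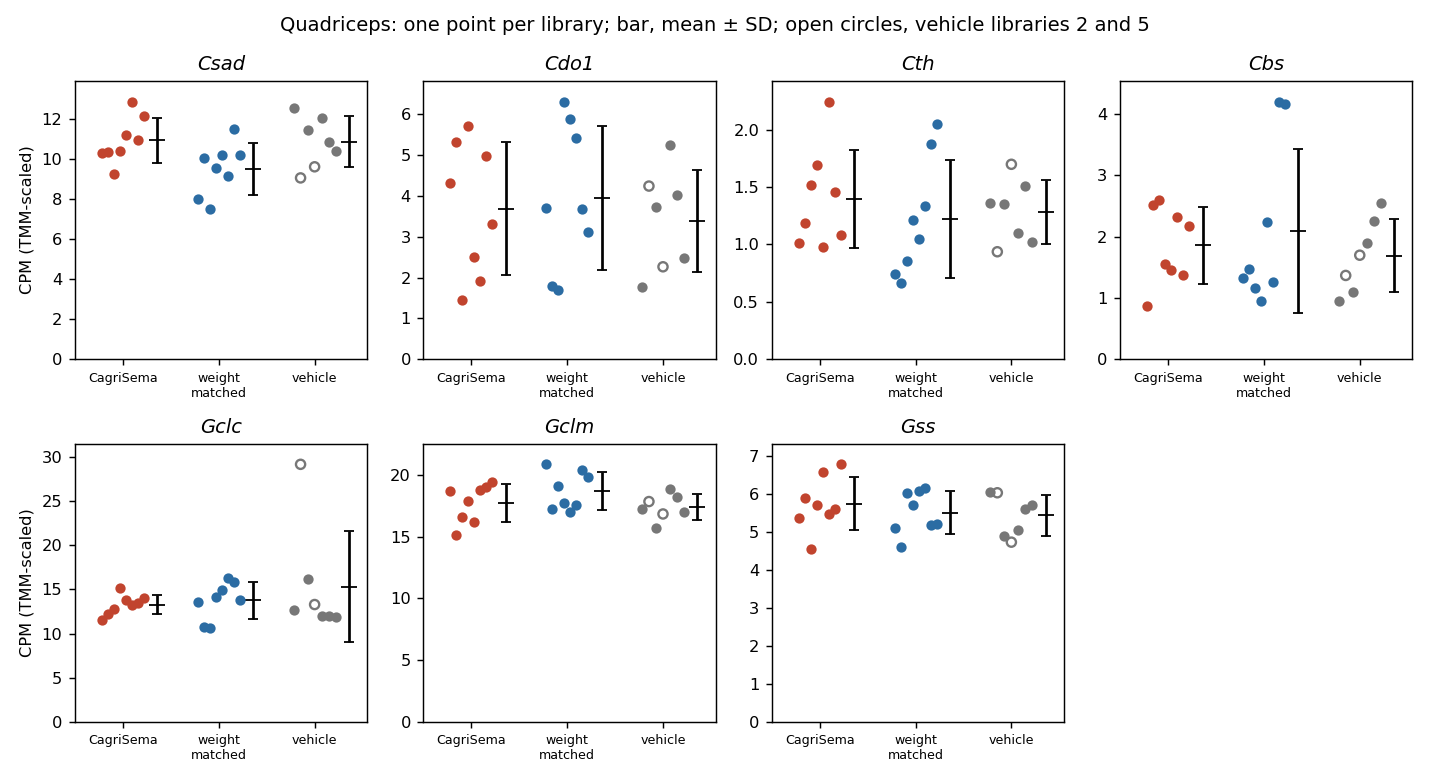
Level of the 7 measurable genes in each quadriceps library, in TMM-scaled CPM on axes that start at 0, with CagriSema left, weight matched in the middle and vehicle right. Points are libraries, bars are the mean ± SD, and open circles are vehicle libraries 2 and 5; the groups overlap for every gene, and the highest Gclc point (29.2 CPM) is vehicle library 2.

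A tissue by treatment interaction, fitted to 14110 genes in the 46 libraries, tested if liver and quadriceps responded unequally. The fit had no block for the library number, so it treats as independent same-numbered libraries that may be paired. A fit with that block is given below. The response to weight matching was larger in liver for Gclm, with a log2 difference of 0.82 ± 0.17 (adjusted p = 0.00522), and for Csad, with one of 0.96 ± 0.24 (adjusted p = 0.0227). These 2 of 7 genes passed beside 2.76% of genes tested. The Csad response to weight matching uses the liver vehicle libraries of the contrast known beforehand, so its p-values here are not independent of that choice. For CagriSema against vehicle the difference of Csad was 1.27 ± 0.25, a description, since it uses the liver contrast known beforehand; 1 of 7 genes, Csad itself, was under the threshold, beside 0.149% of genes, and nothing is read from that count. For CagriSema against weight matching 0 of 7 passed, beside 0.0213%, and the largest difference was that of Gclm (-0.62 ± 0.17, adjusted p = 0.169). Without liver vehicle libraries 4 and 6 the weight-matching differences were 0.74 ± 0.17 for Gclm (adjusted p = 0.0105) and 1.31 ± 0.19 for Csad (adjusted p = 8.9e-05).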

How the data were processed

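Bulk RNA was sequenced from liver and quadriceps in 46 libraries. The authors deposited raw whole-number counts for each gene. The kits were an RNeasy Minikit for RNA and a Twist UMI system for libraries, per the labels' protocols. Read processing named fastp 0.23.1 and STAR 2.5.2b, per the submitters' processing notes. Not given in the sources used here: genome build, annotation, counting program, strand setting and use of molecular identifiers. Library titles identified the columns, and 1 column with no such title was left out. The members, lists and tests were chosen with earlier results of these data known.

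CPM values use TMM-scaled library sizes. In R 4.3.3, edgeR 4.0.16 fitted the 3 groups of a tissue together (filterByExpr, TMM, robust quasi-likelihood F tests), with Benjamini-Hochberg adjustment over all genes tested and a threshold of 0.05; tissue differences were an interaction over 46 libraries. The rule for names took all 10 members, up to 3 called genes with the lowest p from each of 5 pathway lists per comparison within a tissue, and 3 likeness partners for Csad, Bhmt and Gclc. Nqo1 in liver was named after its values were seen. Glrx and Mat2a in CagriSema against weight matching were named outside this rule, which took calls with all libraries. Of 14 cysteine and taurine genes 13 matched a row, and of 18 NRF2 targets 16; 1 gene of the lists is not reported here and is in no list count. Alternatives were DESeq2 1.42.0, limma 3.58.1 voom with sample weights, other scalings, no filter on low counts, 2-group fits, and fits without single libraries or the doubted pairs. The scripts were tested on simulated counts. Promoter sequences are from RefSeq (GRCr8), whose build is not known to be that of the counts.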

Additional observations from a re-analysis of the deposited data

Results flagged for a closer look

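In 4 of 51 groups of values examined, 1 library lay far from the rest of its group by Dixon's criterion, which chance alone meets in about 1 of 20 groups. In liver, vehicle library 4 stood apart for Csad (262.4 CPM, next 155.5 CPM) and for Cdo1 (1974 CPM, next 1381 CPM). Vehicle library 2 stood apart for Gclc in both tissues, at 433 CPM in liver (next 249.7 CPM) and 29.2 CPM in quadriceps (next 16.2 CPM). The labels do not say that libraries of 1 number in both tissues come from 1 rat.

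The response differed between liver and quadriceps, tested as an interaction, for 2 values. With weight matching it was larger in liver by 0.96 on the log2 scale for Csad (adjusted p = 0.0227, edgeR) and by 0.82 for Gclm (adjusted p = 0.00522, edgeR). The Csad value uses the liver vehicle libraries of the contrast known beforehand, so its p-value is not independent of that choice. With CagriSema the difference was 1.27 for Csad, a value that shares the liver contrast known beforehand and is given without a p.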

How the results depend on the processing

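Of 2004 refitted log2 fold changes of named genes, 1880 kept their direction and side of the threshold, 78 lost the call, 5 gained it and 41 changed sign; every change of sign was in a value that was not called. The cause was not tested. Leaving out 1 liver library at a time gave 0 to 1 called members for CagriSema against vehicle (0 without vehicle library 8), 3 to 5 for weight matching against vehicle, and 0 to 1 for CagriSema against weight matching (0 in 13 of 23 fits). A fit of the 2 groups alone gave 0 for CagriSema against vehicle, and no filter on low counts gave 0 for CagriSema against weight matching, where Gclm had an adjusted p of 0.0566 (edgeR). For weight matching, Csad had an adjusted p of 0.0646 in the 2-group fit (edgeR) and lost its call without vehicle library 1 or weight-matched libraries 25, 27 or 30 (0.0501 to 0.0562). DESeq2 added Cbs there (adjusted p = 0.0379); Cdo1 passed without vehicle library 5 (0.0496) and Cbs without vehicle libraries 7 or 8 (edgeR).

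Changes of sign were these. With libraries 4 and 6 left out of liver, CagriSema against vehicle gave -0.030 for Gclc and 0.061 for Gss; limma voom gave 0.027 for Gss there and -0.040 for Gnmt in CagriSema against weight matching. In quadriceps CagriSema against vehicle, limma voom gave -0.0415 for Csad and -0.045 for Cdo1, and without libraries 2 and 5 Csad was -0.069 and Gclc 0.036. In quadriceps weight matching against vehicle, Gclc was 0.016 with limma voom and 0.086 without libraries 2 and 5. Over fits that left out 1 library, the ranges were -0.041 to 0.21 (Gclc, liver CagriSema against vehicle) and -0.15 to 0.16 (Gnmt, liver CagriSema against weight matching). In quadriceps CagriSema against vehicle they were -0.033 to 0.046 for Csad, -0.0019 to 0.26 for Cdo1, -0.012 to 0.20 for Cth and -0.26 to 0.026 for Gclc. In quadriceps weight matching against vehicle they were -0.21 to 0.033 for Cth, -0.21 to 0.075 for Gclc and -0.0091 to 0.053 for Gss. In quadriceps CagriSema against weight matching they were -0.22 to 0.030 for Cdo1 and -0.30 to 0.038 for Cbs.

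A replicate block on the library number left the interaction counts at 1, 2 and 0, with 1.05 for Csad and 0.84 for Gclm in weight matching, and gave -0.037 for Cdo1 and -0.016 for Cth in CagriSema against weight matching. In deviations from their group mean, same-numbered liver and quadriceps libraries correlated from -0.0075 to 0.252 in 22 pairs, 10 above 0.1. Of the 22 liver libraries, 19 correlated best with their own number among the quadriceps libraries of the same treatment. The labels do not say that a number is 1 rat, so the main interaction fit had no block. It therefore treats as independent libraries that may be paired.

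Counts over all genes also moved: 45 genes for CagriSema against vehicle in liver became 280 with DESeq2, 216 with limma voom, 13 with no filter on low counts, and 4 in the 2-group fit or with upper-quartile scaling. DESeq2 and the fit with no filter were fitted to 21668 genes, against 12702 in the main fit. DESeq2 ran with its default filter, which can leave genes without an adjusted p, so 21668 is not its number of genes adjusted. For CagriSema against weight matching in liver, 68 became 211 with DESeq2, 617 with limma voom, 45 with no filter on low counts and 603 in the 2-group fit. Gnmt in liver and Cth, Cbs and Cdo1 in quadriceps had low counts, which limits the precision of their values.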
